A study of Mus musculus with 6 samples.

Results

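Interferon-stimulated genes and interferon-inducible GTPases were followed in whole-liver messenger RNA of mice lacking Notch1 in hepatocytes. The 40 genes were picked by name from the 54532 genes of the deposited table: 31 antiviral genes of the type I interferon response and 9 GTPases known for induction by interferon gamma. All 40 were in the table, and all 40 passed the filter on low values, a mean of at least 0.5 FPKM (fragments per kilobase, adjusted for sequencing depth) over the 6 livers. Livers of 3 knockout mice (genotype Hepatocyte Notch1 KO) were set against livers of 3 control mice (genotype Notch1fl/fl), whose floxed Notch1 alleles are labelled with no deletion. Both groups are labelled as untreated. The sources used here give neither the Cre driver nor the age, sex or housing of the mice, and no pairing, so a p-value reflects variation between these 6 livers, which may be technical, and the deletion as a model of hepatocytes is read here in tissue that also holds other cells. The series was designed around Notch1 and hepatic production of thrombopoietin, the platelet hormone, and interferon was not part of its stated question.

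Interferons are secreted proteins that warn cells of infection. Type I interferons bind the receptor formed by IFNAR1 and IFNAR2, and the kinases JAK1 and TYK2 then activate a complex that holds STAT2 and IRF9 and binds a DNA element called the interferon-stimulated response element (ISRE). Interferon gamma, made mainly by T cells and NK cells, acts through IFNGR1 and IFNGR2 and, in DNA, through the gamma-activated site (GAS). The induced proteins degrade viral RNA, block viral entry or release, feed back on the pathway, or, for the GTPases, attack vacuoles that hold microbes. In liver, hepatocytes, Kupffer cells (the resident macrophages) and endothelial cells all respond, and low expression without infection is known as the tonic interferon signature.

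The libraries held 15612924 to 17511961 reads in genes. Alb, which encodes albumin and marks hepatocytes, measured 20452 to 37515 FPKM, and the deleted gene Notch1 measured 0.301, 0.540 and 0.292 FPKM in knockouts 1 to 3, against 0.618, 0.965 and 0.854 FPKM in controls 1 to 3. Each knockout lay below each control for Notch1, but the call missed an adjusted p of 0.05 (log2 change -0.40, 95% interval -0.70 to -0.10, adjusted p = 0.257), and a gene-level value sums all exons and all liver cell types. The summed level of 5 markers of mesothelial cells, which line the liver surface, was 72.9, 123 and 92.7 FPKM in knockouts 1 to 3, against 4.39, 10 and 43.3 FPKM in controls 1 to 3. The acute phase list held 20 genes, most of which hepatocytes make in inflammation. Its summed level was 24652, 8792 and 23647 FPKM in knockouts 1 to 3, against 12518, 10998 and 10719.5 FPKM in controls 1 to 3. In whole tissue, fewer cells of a type and less RNA per cell cannot be told apart.

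Sequences before the starts of the members were examined because the ISRE is the element through which type I interferon acts on this class of genes. RefSeq promoter windows of GRCm38.p6, from 250 bases before to 50 after a start, were matched by symbol for 31 of the 40 members. The members with no entry were Usp18, Dhx58, Zbp1, Parp14, Rtp4, Ifi27, Ifi27l2a, Iigp1 and Gbp6. The letters searched on both strands were GAAANNGAAA for the ISRE and TTCNNNGAA, which reads the same on both strands, for the GAS. An ISRE match lay in a window of 17 of the 31 members (54.8%), against 3.99% of all 27025 genes in the table. By class it was found in 11 of 24 antiviral members and 6 of 7 GTPases. A GAS match lay in 9 of the 31 (29.0%), against 9.55% of all genes. ISRE matches overlapped each other in 5 members and overlapped a GAS match in 2. A match says only that the letters are present in these windows.

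The stretches below carry the ISRE letters, or their reverse complement, in capitals, and are shown for members on which the later results turn or which lie near them in the genome; each is 5′ to 3′ on the strand of its gene. Rsad2 (chr12:26456538-26456597, minus strand) and Gbp2 (chr3:142620579-142620638, plus strand) had values that did not overlap between the groups, and Gbp7 (chr3:142530258-142530317, plus strand) lies in the same gene cluster as Gbp2, with Gbp3 between them, and its values overlapped. Ifit3 (chr19:34583382-34583441, plus strand) and its near copy Ifit3b (chr19:34607778-34607837, plus strand) had 0 differing bases among 60, so the stretch is given once. Igtp (chr11:58199497-58199556, plus strand) and Irgm2 (chr11:58214888-58214947, plus strand) differed at 2 of 60 bases. Isg15 (chr4:156200856-156200915, minus strand) is a gene with 3 matches in its window that overlap in a row, of which the middle is marked.
Rsad2: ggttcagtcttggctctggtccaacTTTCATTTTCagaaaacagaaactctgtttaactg
Gbp2: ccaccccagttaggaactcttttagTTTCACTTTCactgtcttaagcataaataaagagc
Gbp7: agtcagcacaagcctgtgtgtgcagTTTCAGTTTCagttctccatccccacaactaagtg
Ifit3: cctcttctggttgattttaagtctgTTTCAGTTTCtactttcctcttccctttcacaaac
Igtp: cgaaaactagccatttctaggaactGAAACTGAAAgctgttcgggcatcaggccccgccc
Irgm2: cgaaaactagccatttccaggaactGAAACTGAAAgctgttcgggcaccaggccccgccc
Isg15: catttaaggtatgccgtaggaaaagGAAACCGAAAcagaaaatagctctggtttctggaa
Of the 8 members whose groups did not overlap, 6 had a window and 3 of those held an ISRE match, against 14 of the 25 members with a window whose groups overlapped.

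Per unit of gene length, the members differed widely in level. Ifitm3, a membrane protein that blocks virus entry, had the highest mean over the 6 livers (577 ± 67.7 FPKM in knockouts and 671 ± 122 FPKM in controls, SD, n = 3 each). Bst2, which tethers budding virus, Iigp1, an immunity-related GTPase, and Ifi27l2a came next. The lowest were Gbp6, Ifi44 and Herc6. Counting error was therefore uneven: Ifitm3 rested on 6181 to 8111 reads per liver, Iigp1 on 5090 to 8297 reads and Gbp6 on 51 to 97 reads. Within the controls the members were tight, with a median ratio of highest to lowest liver of 1.2, while within the knockouts that median was 1.42. The spread was wider among knockouts than among controls for 28 of the 40 members (70%), against 55.4% of all tested genes with values in each liver.

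Compared between the groups, most members measured somewhat lower in the knockouts, and none passed the threshold. On the log2(FPKM + 1) scale, 31 members had lower and 9 had higher means in the knockouts, with a median log2 change of -0.16, against -0.0081 over all 12022 genes tested (51.9% lower and 48.1% higher). An adjusted p under 0.05 by limma was reached by 0 of the 40, as it was by 0.025% of all tested genes (3 genes, 0.00832% higher and 0.0166% lower, and 0 genes under the replicate block). At an unadjusted p under 0.05 there were 5 members lower and 2 higher, beside 7.06% and 6.83% of all genes, and the limma voom fit on recovered reads gave 3 lower and 2 higher, with 0 passing. Groups did not overlap for 7 members lower in the knockouts (17.5%, against 10.6% of all genes) and for 1 member higher (2.5%, against 9.2%), or 8 in either direction, against 19.8% of all genes. The 7 were Rsad2, Cmpk2, Ifit3, Usp18, Irf7, Irf9 and Gbp6, and the 1 was Gbp2. The split of 31 to 9 depends on scale and on knockout 2: scaling by total FPKM, which moves the median of all genes to 0.10, gave 23 lower and 17 higher (29 and 11 relative to that median), and without knockout 2 there were 22 lower and 18 higher, with a median of -0.067. The antiviral members had a median of -0.16 (24 of 31 lower) and the GTPases of -0.13 (7 of 9 lower); this difference was not tested.

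**Figure D1:**
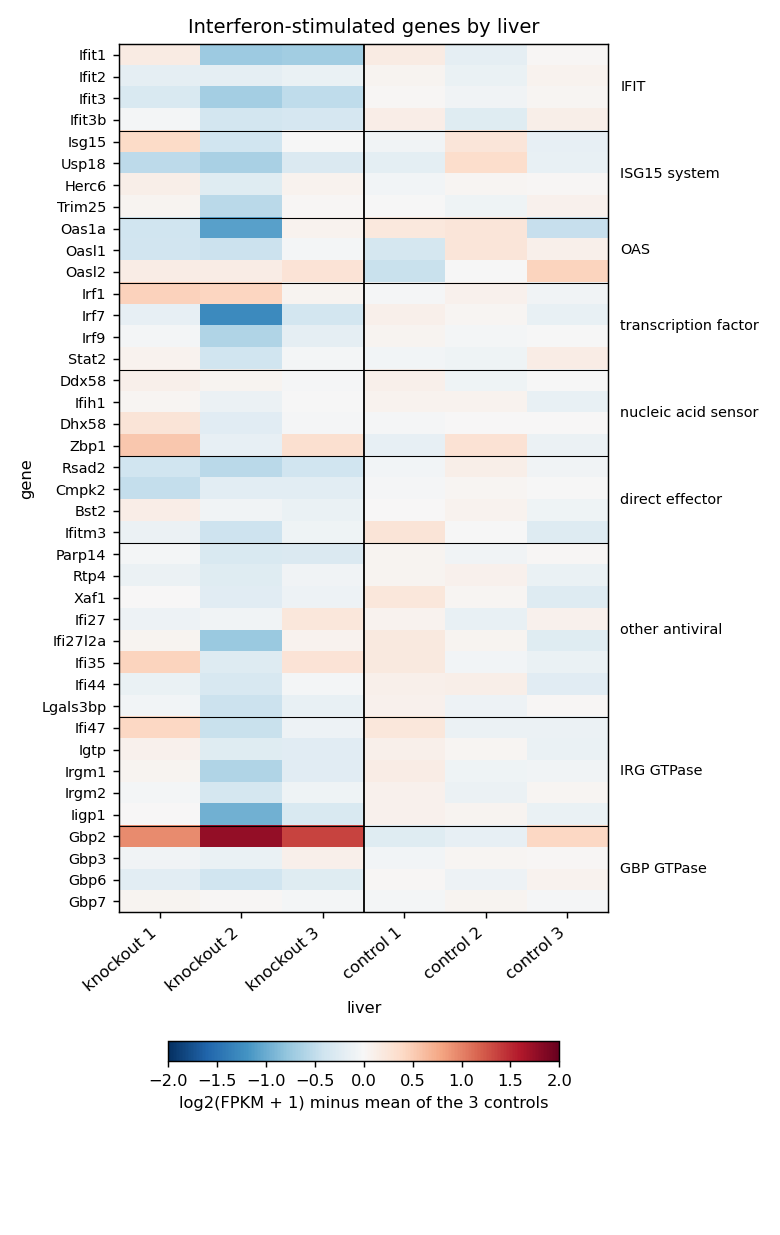
Each cell gives log2(FPKM + 1) of a gene in a liver minus the mean of the 3 controls, with genes in rows grouped by role and livers in columns, knockouts on the left. The column of knockout 2 is mostly blue (lower), Gbp2 is red (higher) in the 3 knockouts, and the columns of knockouts 1 and 3 are mixed.

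**Figure D2:**
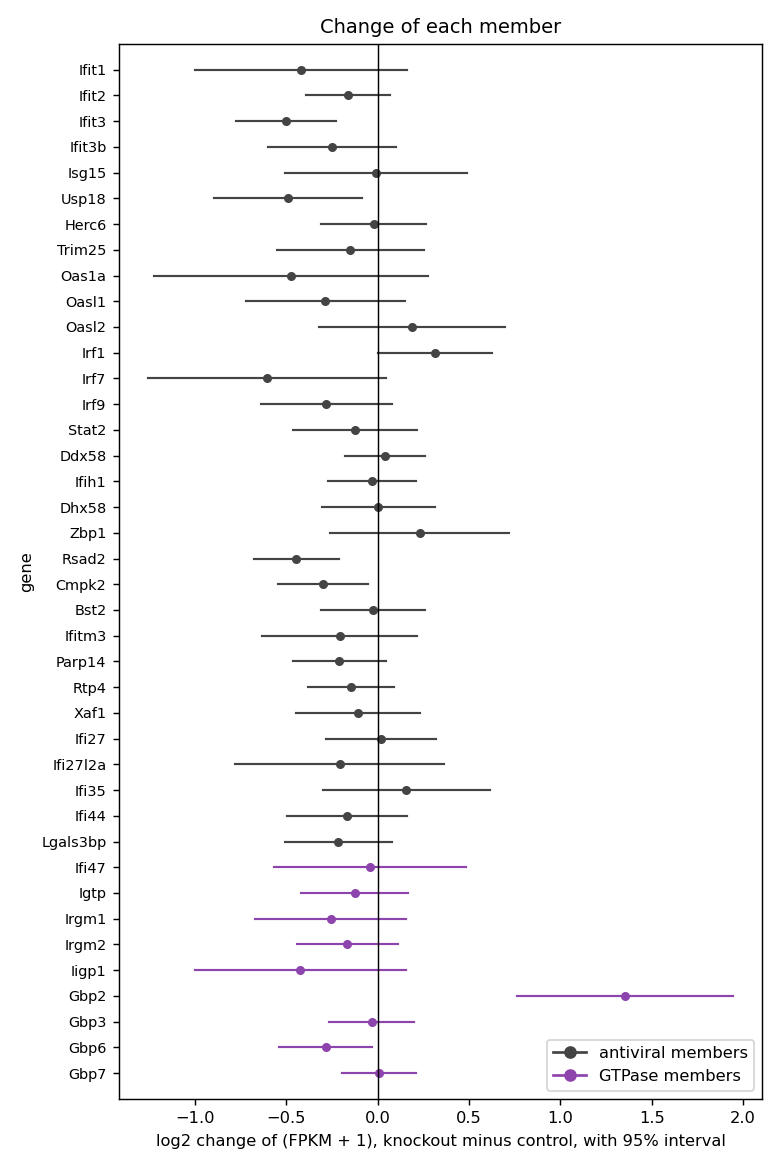
Points give the log2 change of FPKM + 1, knockout minus control, and lines its 95% interval from limma, for the 40 members with n = 3 livers a group. Most points lie just left of 0, with Gbp2 alone above 1, at 1.35.

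Among the direct antiviral effectors, Rsad2 and Cmpk2 measured lower in each knockout than in any control. Rsad2 encodes viperin, an enzyme that makes a chain-terminating nucleotide and blocks the growth of many viruses (ENSMUSG00000020641, chromosome 12, 26442746 to 26456452, minus strand, GRCm38 as for all positions here). It measured 2.07, 1.81 and 2.09 FPKM in knockouts 1 to 3, against 2.89, 3.43 and 2.89 FPKM in controls 1 to 3. The knockouts lay close together and below the controls, with a knockout to control ratio of 0.648 that did not pass the threshold (log2 change -0.44, 95% interval -0.68 to -0.21, adjusted p = 0.159; 0.157 to 0.362 over 16 alternatives). Cmpk2, a mitochondrial nucleotide kinase encoded 12752 bases away on the opposite strand (ENSMUSG00000020638, chromosome 12, 26469204 to 26479837, plus strand), measured 1.57, 2.08 and 2.08 FPKM in knockouts 1 to 3, against 2.5, 2.67 and 2.54 FPKM in controls 1 to 3. Its lowest value was in knockout 1, and its controls spanned a narrow range (log2 change -0.30, 95% interval -0.55 to -0.051, adjusted p = 0.285). Together the neighbours share a direction, though the windows searched held an ISRE match for Rsad2 and 0 for Cmpk2.

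The abundant membrane effectors showed little difference. Bst2, or tetherin, measured 254, 219.7 and 210.3 FPKM in knockouts 1 to 3, against 232, 242 and 219 FPKM in controls 1 to 3. Its lowest and highest livers were both knockouts (log2 change -0.022, 95% interval -0.31 to 0.26, adjusted p = 0.959). Ifitm3 measured 609.6, 499 and 622 FPKM in knockouts 1 to 3, against 797, 661 and 554 FPKM in controls 1 to 3, with knockouts 1 and 3 inside the range of the controls and knockout 2 below it (log2 change -0.21, 95% interval -0.63 to 0.22, adjusted p = 0.655). Its highest liver was control 1.

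IFIT proteins bind viral RNA that lacks the host's cap methylation and stop its translation, and their genes lie together on chromosome 19. Ifit3 (ENSMUSG00000074896, chromosome 19, 34583531 to 34588731, plus strand) measured 8.28, 6.15 and 7.04 FPKM in knockouts 1 to 3, against 10.7, 9.98 and 10.8 FPKM in controls 1 to 3. The controls lay close together (coefficient of variation 4.22%) and the knockouts all lay below them, a ratio of 0.682 (log2 change -0.50, 95% interval -0.77 to -0.23, adjusted p = 0.165; 0.121 to 0.401 over the alternatives). Ifit1, the cap sensor of the family, measured 5.92, 2.74 and 2.84 FPKM in knockouts 1 to 3, against 5.95, 4.44 and 5.28 FPKM in controls 1 to 3. Knockouts 2 and 3 were low while knockout 1 was at the level of the controls (log2 change -0.42, adjusted p = 0.498). Ifit3b measured 2.51, 1.80 and 1.84 FPKM in knockouts 1 to 3, against 2.97, 2.03 and 2.89 FPKM in controls 1 to 3, and Ifit2 measured 1.40, 1.40 and 1.49 FPKM in knockouts 1 to 3, against 1.83, 1.48 and 1.85 FPKM in controls 1 to 3. The groups overlapped for both, and all 4 family members had lower means in the knockouts. Ifit3 and Ifit3b cannot be cleanly told apart by reads, since 51.2% of the 50-base stretches of Ifit3 transcripts also occur in Ifit3b. Their summed level did not overlap between groups, with 10.8, 7.94 and 8.88 FPKM in knockouts 1 to 3, against 13.7, 12.0 and 13.7 FPKM in controls 1 to 3.

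The ISG15 system attaches a ubiquitin-like protein to other proteins and removes it again. Usp18, the protease that removes ISG15 and also blocks signalling at IFNAR2 (ENSMUSG00000030107, chromosome 6, 121245906 to 121270917, plus strand), measured 2.30, 2.04 and 2.87 FPKM in knockouts 1 to 3, against 3.15, 5.03 and 3.28 FPKM in controls 1 to 3. Control 2 was well above the other livers, and the lowest control exceeded the highest knockout by a small margin (log2 change -0.49, 95% interval -0.89 to -0.083, adjusted p = 0.285). Isg15 itself measured 26.3, 14.8 and 19.9 FPKM in knockouts 1 to 3, against 18.9, 23.8 and 17.6 FPKM in controls 1 to 3. Knockout 1 was the highest and knockout 2 the lowest of the 6 livers, and the group means were nearly equal (log2 change -0.0069, 95% interval -0.51 to 0.49, adjusted p = 0.994). Herc6, the main ISG15 ligase in mouse, averaged 1.17 ± 0.280 FPKM in knockouts and 1.19 ± 0.0788 FPKM in controls (SD, n = 3 each), and Trim25, a ubiquitin ligase that activates the RNA sensor RIG-I, averaged 12.1 ± 2.81 FPKM in knockouts and 13.3 ± 0.875 FPKM in controls. Knockout 2 was the lowest liver for Trim25, at 8.82 FPKM, and without it the log2 change was 0.044. Herc6 values overlapped (log2 change -0.021, adjusted p = 0.961).

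Oligoadenylate synthetases sense double-stranded RNA and activate RNase L. Oas1a, a catalytically active member, measured 2.94, 1.46 and 4.47 FPKM in knockouts 1 to 3, against 5.02, 5.20 and 2.81 FPKM in controls 1 to 3. Knockout 2 was lowest, and knockouts 1 and 3 lay within the controls (log2 change -0.47, 95% interval -1.22 to 0.27, adjusted p = 0.558). Reads of Oas1a and Oas1g may be exchanged, as 57.6% of the 50-base stretches of Oas1a occur in Oas1g, and the summed level of the pair was 3.86, 1.90 and 5.72 FPKM in knockouts 1 to 3, against 5.82, 6.0 and 3.76 FPKM in controls 1 to 3, which overlapped too. Oasl1, which in mouse limits translation of Irf7, measured 2.49, 2.37 and 3.43 FPKM in knockouts 1 to 3, against 2.56, 4.40 and 3.90 FPKM in controls 1 to 3. Oasl2 measured 1.75, 1.74 and 1.99 FPKM in knockouts 1 to 3, against 0.816, 1.48 and 2.39 FPKM in controls 1 to 3, with its lowest and highest values both in controls. Neither separated the groups (adjusted p = 0.546 for Oasl1 and 0.756 for Oasl2).

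Among the transcription factors, Irf7, Irf9 and Stat2 had lower means in the knockouts and Irf1 a higher one. Irf7, the factor that amplifies interferon alpha production (ENSMUSG00000025498, chromosome 7, 141262706 to 141266481, minus strand), measured 13.8, 5.88 and 11.9 FPKM in knockouts 1 to 3, against 16.9, 16.2 and 14 FPKM in controls 1 to 3. Knockout 2 was far below the rest, and knockout 1 was only just below control 3 (log2 change -0.60, 95% interval -1.25 to 0.049, adjusted p = 0.392). Without knockout 2 the log2 change of Irf7 was -0.27. Irf9, the DNA-binding partner of Stat2 (ENSMUSG00000002325, chromosome 14, 55603571 to 55610030, plus strand), measured 5.93, 3.69 and 5.31 FPKM in knockouts 1 to 3, against 6.42, 5.97 and 6.10 FPKM in controls 1 to 3. Again knockout 2 was lowest, knockout 1 lay next to the lowest control, and the log2 change was -0.28 (adjusted p = 0.463), or -0.11 without knockout 2. Stat2 itself measured 7.30, 4.97 and 6.64 FPKM in knockouts 1 to 3, against 6.56, 6.42 and 7.70 FPKM in controls 1 to 3 and overlapped (log2 change -0.12, adjusted p = 0.765). Irf1, which responds most to interferon gamma and drives Gbp genes, measured 4.81, 4.67 and 3.35 FPKM in knockouts 1 to 3, against 3.15, 3.49 and 3.00 FPKM in controls 1 to 3. Knockouts 1 and 2 were above the controls and knockout 3 was within them, with a ratio of 1.33 (log2 change 0.32, 95% interval 0.0018 to 0.63, adjusted p = 0.357).

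**Figure D3:**
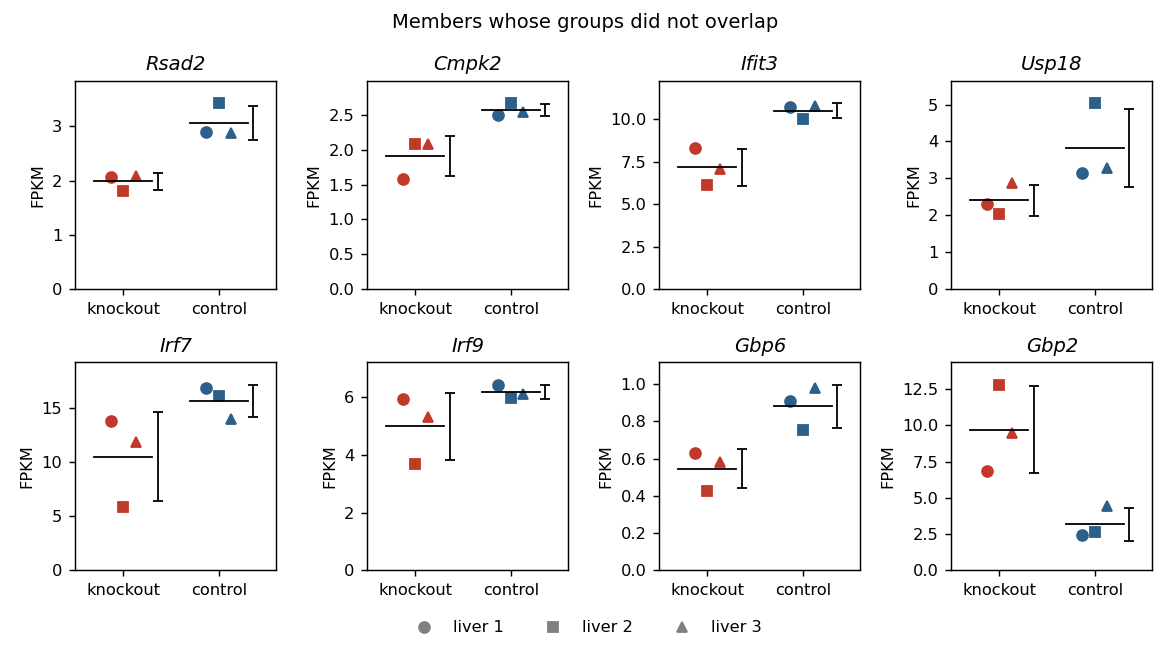
FPKM in each liver for the 8 members whose groups did not overlap, knockouts on the left (circle, square and triangle are livers 1, 2 and 3), with a line at the group mean and a bar of ± SD (n = 3) beside it. Rsad2 knockouts sit at 1.81 to 2.09 FPKM, below controls at 2.89 to 3.43, and Gbp2 knockouts at 6.88 to 12.8 FPKM, above controls at 2.44 to 4.47.

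Among the cytosolic sensors of nucleic acid, the means of Ddx58, Ifih1 and Dhx58 were close between the groups, and Zbp1 had a higher mean in the knockouts. Ddx58, which encodes the viral RNA sensor RIG-I, measured 3.01, 2.91 and 2.67 FPKM in knockouts 1 to 3, against 3.01, 2.53 and 2.73 FPKM in controls 1 to 3. Ifih1, which encodes MDA5, the sensor of long double-stranded RNA, measured 4.34, 3.77 and 4.13 FPKM in knockouts 1 to 3, against 4.46, 4.43 and 3.68 FPKM in controls 1 to 3. Both overlapped, with narrow intervals (Ddx58 log2 change 0.041, 95% interval -0.18 to 0.26; Ifih1 -0.028, -0.27 to 0.21). Dhx58, which encodes the regulator LGP2, measured 3.70, 2.38 and 2.90 FPKM in knockouts 1 to 3, against 2.89, 2.98 and 2.96 FPKM in controls 1 to 3. The controls of Dhx58 were almost identical, and knockouts 1 and 2 lay on opposite sides of them. Zbp1, a sensor of Z-form nucleic acid that triggers cell death, measured 5.74, 3.14 and 4.82 FPKM in knockouts 1 to 3, against 3.15, 4.67 and 3.27 FPKM in controls 1 to 3, with knockouts 1 and 3 above every control and knockout 2 just below the lowest control (log2 change 0.23, 95% interval -0.26 to 0.72, adjusted p = 0.674).

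The remaining 8 antiviral members each overlapped between the groups, 6 with lower and 2 with higher means in the knockouts. Parp14, a mono-ADP-ribosyltransferase, measured 2.93, 2.24 and 2.31 FPKM in knockouts 1 to 3, against 3.17, 2.82 and 3.08 FPKM in controls 1 to 3. Rtp4, a transporter chaperone that restricts flaviviruses, measured 6.37, 5.78 and 6.64 FPKM in knockouts 1 to 3, against 7.29, 7.47 and 6.35 FPKM in controls 1 to 3. Knockouts 2 and 3 of Parp14 lay below the controls, and for Rtp4 only knockout 2 did (adjusted p = 0.442 for Parp14 and 0.565 for Rtp4). Lgals3bp, a secreted glycoprotein, averaged 19.5 ± 2.72 FPKM in knockouts and 22.7 ± 1.54 FPKM in controls (log2 change -0.22, 95% interval -0.51 to 0.078, adjusted p = 0.490). Xaf1, a promoter of apoptosis, averaged 1.58 ± 0.205 FPKM in knockouts and 1.80 ± 0.464 FPKM in controls, and Ifi44, an antiviral protein of low level here, 0.757 ± 0.175 FPKM in knockouts and 0.979 ± 0.262 FPKM in controls. The SD was larger among controls for both. Ifi27l2a measured 67.0, 38.1 and 68.3 FPKM in knockouts 1 to 3, against 74.3, 67.3 and 54.3 FPKM in controls 1 to 3, and Ifi27, a mitochondrial protein encoded beside it on chromosome 12, measured 37.7, 38.5 and 47.6 FPKM in knockouts 1 to 3, against 42.6, 36.4 and 42.9 FPKM in controls 1 to 3. Knockout 2 was low for Ifi27l2a but near the controls for Ifi27, and the groups overlapped for each (adjusted p = 0.764 for Ifi27l2a and 0.969 for Ifi27). Ifi35, a partner of the adaptor protein NMI, measured 14.6, 8.61 and 12.9 FPKM in knockouts 1 to 3, against 12.2, 9.98 and 9.41 FPKM in controls 1 to 3, with knockouts 1 and 3 above each control and knockout 2 below each control (log2 change 0.16, adjusted p = 0.775).

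Immunity-related GTPases (IRG proteins) load onto vacuoles holding microbes such as Toxoplasma and break them open. The regulatory members Irgm1, Irgm2 and Igtp protect the cell's own membranes, while Iigp1 and Ifi47 are effectors. Iigp1, the most abundant of the 9 GTPases (ENSMUSG00000054072), measured 162, 81.3 and 129 FPKM in knockouts 1 to 3, against 170.3, 166 and 145 FPKM in controls 1 to 3. Knockout 2 was at a level well below the other 5 livers, knockout 1 was within the controls and knockout 3 was below them (log2 change -0.42, 95% interval -1.0 to 0.15, adjusted p = 0.491). Without knockout 2 its log2 change was -0.15. Irgm1 measured 10.4, 6.20 and 8.38 FPKM in knockouts 1 to 3, against 11.2, 9.33 and 9.40 FPKM in controls 1 to 3, and again knockout 2 was the lowest liver and knockout 1 lay among the controls (log2 change -0.26, adjusted p = 0.563). Igtp averaged 8.97 ± 1.34 FPKM in knockouts and 9.84 ± 0.909 FPKM in controls and Irgm2 7.94 ± 1.01 FPKM in knockouts and 8.99 ± 0.722 FPKM in controls. Their annotated spans overlap on chromosome 11, and 11.8% of the 50-base stretches of Igtp occur in Irgm2; the summed level was 19.2, 14.9 and 16.6 FPKM in knockouts 1 to 3, against 20.1, 18.2 and 18.1 FPKM in controls 1 to 3, and the groups overlapped. Ifi47 measured 17.5, 9.24 and 11.9 FPKM in knockouts 1 to 3, against 15.3, 11.8 and 11.8 FPKM in controls 1 to 3, spread widely among the knockouts around a log2 change of -0.040 (adjusted p = 0.959). All 5 had lower means in the knockouts and 0 had groups that did not overlap.

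Guanylate-binding proteins (GBP) coat bacteria and vacuoles and feed inflammasome activation, and here the 4 members split. Gbp2 (ENSMUSG00000028270, chromosome 3, 142620602 to 142638008, plus strand) was the member with the largest difference, a knockout to control ratio of 3.06. It measured 6.88, 12.8 and 9.46 FPKM in knockouts 1 to 3, against 2.44, 2.63 and 4.47 FPKM in controls 1 to 3, from 92 to 646 reads. Each knockout lay above each control, with knockout 2 the highest and control 3 the highest control. The log2 change was 1.35 (SE 0.25, 95% interval 0.76 to 1.95) and did not pass the threshold (adjusted p = 0.114; 0.0750 to 0.323 over the alternatives). Leaving out each liver in turn gave log2 changes of 1.15 to 1.56. Gbp3 and Gbp7 lie in the same cluster on chromosome 3 and were level between the groups. Gbp7 measured 2.23, 2.17 and 2.02 FPKM in knockouts 1 to 3, against 2.04, 2.25 and 2.07 FPKM in controls 1 to 3, with a 95% interval of -0.19 to 0.21 for its log2 change. Gbp3 measured 3.38, 3.19 and 3.96 FPKM in knockouts 1 to 3, against 3.41, 3.73 and 3.67 FPKM in controls 1 to 3, with an interval of -0.26 to 0.20. Neither interval reached the lower bound of that of Gbp2, though a difference between genes was not tested. Transcripts of Gbp2 shared 2.03% of their 50-base stretches with another gene, Gbp2b. Gbp5 and Gbp2b, which are no members, lie in the same cluster on chromosome 3. Gbp5 was below the filter, with 34 to 49 reads per liver, and each knockout lay above each control. It measured 0.484, 0.361 and 0.432 FPKM in knockouts 1 to 3, against 0.341, 0.339 and 0.317 FPKM in controls 1 to 3. Gbp2b had a lower mean in the knockouts, and its groups overlapped (log2 change -0.14).

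Gbp6, on chromosome 5 (ENSMUSG00000104713, chromosome 5, 105270702 to 105293698, minus strand), went the other way from Gbp2. It measured 0.629, 0.427 and 0.580 FPKM in knockouts 1 to 3, against 0.907, 0.755 and 0.980 FPKM in controls 1 to 3, on 51 to 97 reads per liver. Each knockout lay below each control, by a ratio of 0.619 (log2 change -0.28, 95% interval -0.54 to -0.031, adjusted p = 0.315). At this low level a pseudocount of 1 understates the fold, and with 0.1 the log2 change was -0.61. Of its 50-base stretches 70.7% occur in transcripts of other genes, mostly the overlapping model Gm43302, so the value of Gbp6 is uncertain. Its relatives Gbp11 and Gbp10, which are no members and whose shared sequence was not measured, also had lower means in the knockouts. Gbp11 is annotated as a polymorphic pseudogene, and the span of Gm43302 also covers Gbp10. Gbp11 measured 0.994, 0.834 and 0.739 FPKM in knockouts 1 to 3, against 5.60, 2.34 and 3.20 FPKM in controls 1 to 3. Gbp10 measured 2.24, 0.863 and 1.09 FPKM in knockouts 1 to 3, against 2.91, 2.64 and 1.91 FPKM in controls 1 to 3. Knockouts lay below controls for Gbp11 in each liver (log2 change -1.29, 95% interval -1.85 to -0.73, adjusted p = 0.114), while for Gbp10 knockout 1 lay among the controls (log2 change -0.57, adjusted p = 0.329).

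The order of the 6 livers by Gbp2 was that of several mesothelial markers. From highest to lowest, Gbp2 ran knockouts 2, 3 and 1, then controls 3, 2 and 1, as did Msln (mesothelin), Upk3b and Lrrn4, while Upk1b and Wt1 exchanged neighbours in it. Krt19 and Krt7, keratins of bile duct cells that mesothelial cells also make, had the same order. The other listed bile duct markers, Spp1, Epcam and Cldn7, did not have it, and their groups overlapped. Spp1 in knockout 2 (6.54 FPKM) lay above control 3 alone (5.55 FPKM) and was highest in knockout 3 (17.6 FPKM). Epcam and Cldn7 were below the filter. In knockout 2, Epcam lay above control 1 alone, while Cldn7 was the highest of the 6 livers. Msln measured 36.6, 60.7 and 41.8 FPKM in knockouts 1 to 3, against 2.02, 3.90 and 19.1 FPKM in controls 1 to 3. None of the 5 mesothelial markers was at 0 in any liver, and the groups did not overlap for 4 of the 5. Of the 12022 tested genes, 170 besides Gbp2 had this order, with Msln, Upk3b, Lrrn4, Krt19 and Krt7 among them. The part of mesothelial cells in the Gbp2 difference was not tested.

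**Figure D4:**
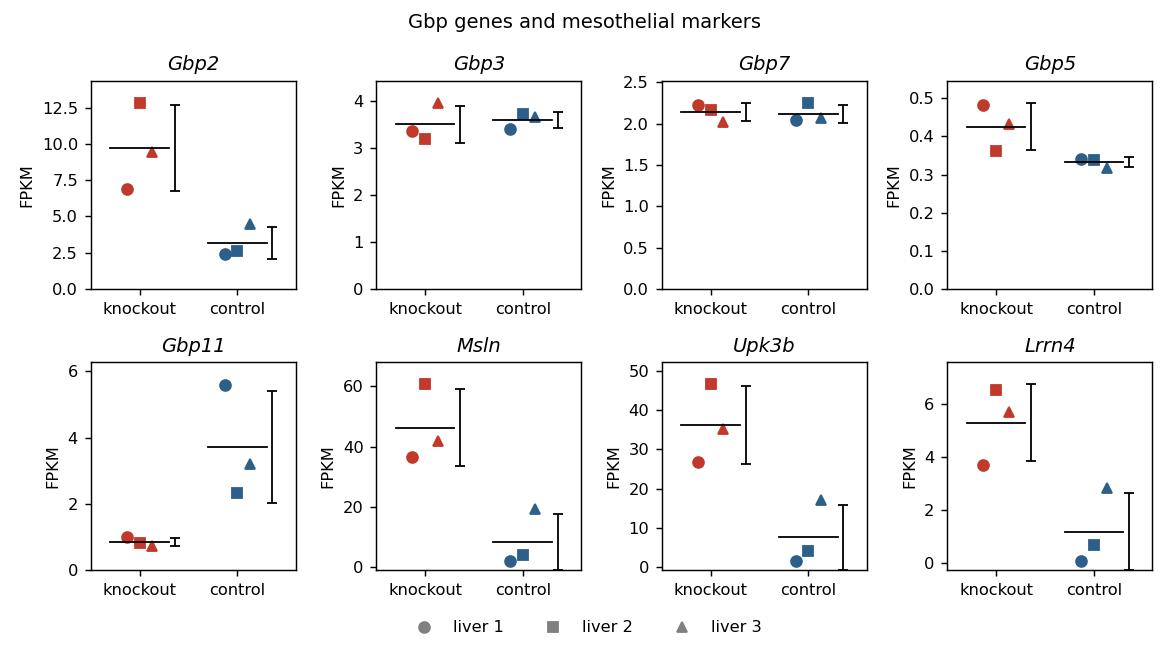
FPKM in each liver for 5 Gbp genes and 3 mesothelial markers, knockouts on the left, with group mean and ± SD (n = 3); circle, square and triangle are livers 1, 2 and 3. Gbp2 and the markers Msln, Upk3b and Lrrn4 share the order of livers, and Gbp3 and Gbp7 are level. Gbp5, below the filter, is higher in each knockout than in any control. Gbp11 is higher in controls (2.34 to 5.60 FPKM) than in knockouts (0.739 to 0.994 FPKM).

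Much of the lower level of the members in the knockouts was in knockout 2. This liver had the lowest value of the 6 for 29 of the 40 members (72.5%), against 24.5% of all tested genes. It lay below the lowest control for 31 members (77.5%, against 34.9% of all genes), whereas knockout 1 did for 10 (25%, against 26.6%) and knockout 3 for 16 (40%, against 30.1%). Above the highest control, knockout 1 held 25% of the members (26.7% of all genes), knockout 2 held 5% (30.8%) and knockout 3 held 15% (27.8%). The median log2 difference of the members from the control mean was 0.0096 in knockout 1, -0.34 in knockout 2 and -0.081 in knockout 3, while single controls lay between -0.018 and 0.051. Over all tested genes the same median in knockout 2 was -0.019. The FPKM of that liver summed over all genes was the lowest of the 6 livers, at 397125, against 464954 to 517132 in controls. The exceptions in knockout 2 were Gbp2 and Irf1, the 2 members above every control in that liver. Without knockout 2, groups did not overlap for 7 members lower and 4 higher, beside 15.3% and 14.3% of all genes. The count lower was 14 without knockout 1 (18.3% of all genes) or without control 3 (16.0%), and 12 without control 2 (15.9%). The count higher was 2 without knockout 3 (13.4% of all genes), control 2 (14.2%) or control 3 (14.4%).

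**Figure D5:**
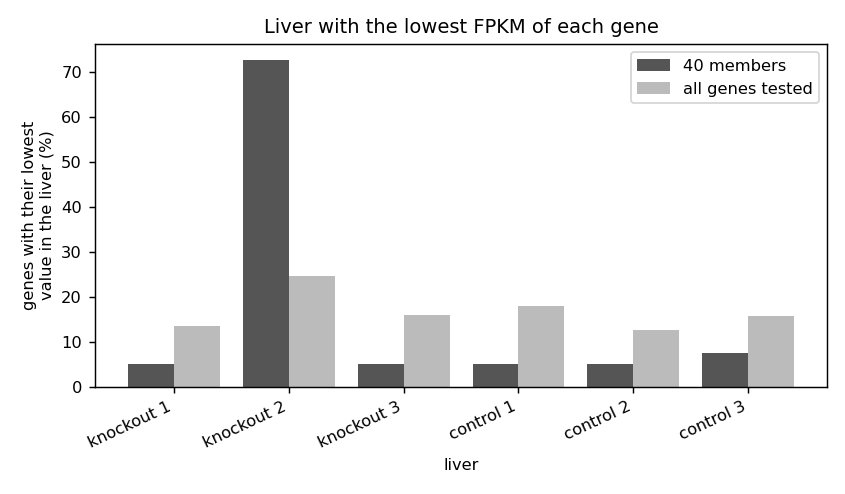
Bars give the percentage of genes whose lowest FPKM of the 6 livers fell in each liver, for the 40 members (dark) and for all 12022 tested genes (light). Knockout 2 held the lowest value of 72.5% of the members and 24.5% of all genes.

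Some other features moved with knockout 2, and others did not. All 20 acute phase genes had higher means in the knockouts, against 48.1% of all tested genes. Their median log2 difference from the control mean was 1.15 in knockout 1, -0.34 in knockout 2 and 0.87 in knockout 3. Knockout 2 was the knockout with mostly low acute phase genes: 13 of those 20 genes (65%, against 24.5% of all tested genes) had their lowest value there. The acute phase protein gene Saa2, not among the 13, measured 813, 8.62 and 1537 FPKM in knockouts 1 to 3, against 12.2, 4.79 and 3.94 FPKM in controls 1 to 3. Knockout 2 lay within the controls for Saa2. Saa3, the 1 of the 20 whose groups did not overlap, was higher in each knockout. It measured 5.44, 3.90 and 6.24 FPKM in knockouts 1 to 3, against 1.15, 1.61 and 0.947 FPKM in controls 1 to 3. The summed level of 10 Kupffer cell markers was 396, 290.3 and 328 FPKM in knockouts 1 to 3, against 359.6, 377 and 302 FPKM in controls 1 to 3. Of these markers, 5 were lowest in knockout 2 (50%, against 24.5% of all tested genes), and none of the 10 was at 0. Clec4f was among the 5 (40.6 FPKM, against 53.6 to 70.9 FPKM in controls). Others went the other way in that liver: Adgre1 was the highest of the 6 livers there (9.83 FPKM, against 7.39 to 9.02 FPKM in controls), and Marco lay above every control (5.73 FPKM, against 2.67 to 3.63 FPKM in controls). The 8 hepatocyte markers summed to 42936, 44319 and 32969.9 FPKM in knockouts 1 to 3, against 45607, 53436 and 47629.9 FPKM in controls 1 to 3. Each knockout sum lay below each control sum, with knockout 2 the highest of the knockouts. Alb made up most of each sum (28279 FPKM in knockout 2, against 29979 to 37515 FPKM in controls). Alb was the 1 of the 8 whose groups did not overlap, and 2 of the 8, Tat and Ass1, had higher means in the knockouts. Of 7 markers of sinusoidal endothelial cells, 5 had lower and 2 had higher means in the knockouts, with a median log2 change of -0.16. Groups did not overlap for 2 of the lower ones (28.6%, against 10.6% of all genes). Their median log2 difference from the control mean was -0.15, -0.21 and -0.12 in knockouts 1 to 3, against 0.062, 0.12 and -0.12 in controls 1 to 3. Knockout 2 was lowest for 2 of the 7. The 12 T and NK cell markers, whose cells make interferon gamma, summed to 5.85, 5.26 and 5.71 FPKM in knockouts 1 to 3, against 6.60, 5.52 and 5.85 FPKM in controls 1 to 3. Of these 12, 5 were lowest in knockout 2 (41.7%, against 24.5% of all tested genes), though only 3 of the 12 passed the filter. In knockout 2, Ncr1, a marker of 0 to 5 reads per liver, was at 0 and Gzma was the highest of the 6 livers (2.43 FPKM, against 1.61 to 2.03 FPKM in controls). The sums of the Kupffer, T and NK cell and acute phase lists overlapped between the groups, and the part of these cell types and of the acute phase in the members' levels was not tested.

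The upstream parts of the pathway were then compared, using 125 pathway genes that are no members. Interferon genes themselves were nearly silent: of 21 ligand genes, 19 were listed at 0 in all 6 livers, Ifng had 2 reads in knockout 1 and 1 read in control 2, and Ifnz had 1 read in control 3. A count of 0 in a library allows up to 3 reads, or 0.150 to 0.201 FPKM for a gene of 1 kilobase, for counting error alone. The receptor genes for type I interferon and interferon gamma were expressed. Ifnar1 measured 4.25, 4.91 and 5.02 FPKM in knockouts 1 to 3, against 5.74, 4.41 and 5.03 FPKM in controls 1 to 3, and Ifnar2 measured 12.4, 13.9 and 12.6 FPKM in knockouts 1 to 3, against 10.3, 13.8 and 15.4 FPKM in controls 1 to 3. Ifngr1 averaged 7.32 ± 0.288 FPKM in knockouts and 6.87 ± 0.773 FPKM in controls and Ifngr2 7.04 ± 0.378 FPKM in knockouts and 6.76 ± 0.914 FPKM in controls. The groups overlapped for each of these 4 receptor genes. Ifnlr1, which encodes a subunit of the type III interferon receptor, was below the filter, with 3, 7 and 5 reads in knockouts 1 to 3, against 0, 0 and 1 in controls 1 to 3, so its groups did not overlap at a level near the limit of counting.

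Of the 82 tested pathway genes, 44 had lower and 38 had higher means in the knockouts, with a median log2 change of -0.0060, near that of all genes. By limma 0 passed, with 2 higher and 4 lower at an unadjusted p under 0.05. Groups did not overlap for 6 higher (7.32%) and 6 lower (7.32%), beside 9.2% and 10.6% of all genes. Among other interferon-stimulated genes, Helz2, a helicase coactivator, measured 4.74, 4.19 and 4.77 FPKM in knockouts 1 to 3, against 5.72, 5.46 and 6.56 FPKM in controls 1 to 3. Ifi203, a member of the DNA-sensing PYHIN family, averaged 1.42 ± 0.0437 FPKM in knockouts and 1.73 ± 0.117 FPKM in controls. Both lay lower in each knockout (adjusted p = 0.258 for Helz2 and 0.434 for Ifi203), while Parp10 and Uba7, the activating enzyme for ISG15, lay higher in each (3.48 ± 0.147 FPKM in knockouts and 2.89 ± 0.347 FPKM in controls for Parp10; 1.40 ± 0.114 FPKM in knockouts and 1.15 ± 0.109 FPKM in controls for Uba7). This list of 45 was lowest in knockout 2 for 23 of the 44 genes with a read (52.3%, against 24.5% of all tested genes), though only 33 passed the filter.

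Genes known for induction by interferon gamma lay on both sides, as did the chemokines that draw T cells. Cxcl10 measured 0.742, 1.22 and 1.04 FPKM in knockouts 1 to 3, against 2.04, 1.39 and 1.36 FPKM in controls 1 to 3, each knockout being lower. Cxcl9 measured 5.23, 12.1 and 5.28 FPKM in knockouts 1 to 3, against 4.75, 5.18 and 4.57 FPKM in controls 1 to 3, each knockout being higher, though knockouts 1 and 3 exceeded the highest control by little and knockout 2 stood apart. Neither passed (adjusted p = 0.327 for Cxcl10 and 0.519 for Cxcl9). The immunoproteasome genes Psmb8 and Psmb10, whose products cut peptides for MHC class I, averaged 8.66 ± 0.719 FPKM in knockouts and 6.89 ± 0.545 FPKM in controls for Psmb8, and 24.5 ± 1.30 FPKM in knockouts and 19.3 ± 3.12 FPKM in controls for Psmb10. Each knockout was above each control for both (adjusted p = 0.280 for Psmb8 and 0.313 for Psmb10). The groups overlapped for Psmb9, another immunoproteasome gene. It measured 5.15, 3.88 and 5.18 FPKM in knockouts 1 to 3, against 4.15, 4.39 and 2.53 FPKM in controls 1 to 3. Among other genes of the pathway, the transcription factor gene Irf2 averaged 5.32 ± 0.186 FPKM in knockouts and 4.92 ± 0.107 FPKM in controls, and Ticam1, the adaptor of Toll-like receptor 3, averaged 4.32 ± 0.254 FPKM in knockouts and 5.13 ± 0.405 FPKM in controls. The groups did not overlap for either (adjusted p = 0.639 for Irf2 and 0.392 for Ticam1).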

How the data were processed

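Livers of 3 knockout and 3 control mice were sequenced. Per the labels' protocols, poly(A) RNA from Trizol extracts went into NEBNext Ultra libraries. HISAT2 2.0.5, featureCounts 1.5.0-p3 and GRCm38 are named, per the submitters' processing notes, with no settings or strandedness. The authors deposited FPKM for 54532 genes, so values come already scaled for depth and length. The FPKM summed over genes still differed between libraries, from 397125 in knockout 2 to 517132 in control 1. The columns KO1 to KO3 match the knockout titles, and the other columns, NC1 to NC3, were read as the controls because no other samples remained (0 columns were unused). Reads per gene were recovered from the FPKM, gene length and a step size for each library, and 100% of values above 0 came within 0.1 of a whole read.

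The 12022 genes that averaged 0.5 FPKM or more went into limma 3.58.1 (R 4.3.3, eBayes with trend) as log2(FPKM + 1), two-sided, with Benjamini-Hochberg adjustment over all tested genes and a threshold of 0.05; fold changes on this scale understate those of low genes. Errors are SD over n = 3 livers. The members and lists were chosen with earlier results of these data known. All members were named; of other pathway genes, the receptors and up to 4 per list and direction with the smallest p among those of at least 1 FPKM whose groups did not overlap, of which some are not reported here. Gbp2b, Gbp5, Gbp10, Ifnlr1, Msln, Saa2, Saa3, Spp1, Epcam, Cldn7, Tat, Ass1, Psmb9, Clec4f, Adgre1, Marco, Gzma and Ncr1 were chosen after their values were seen. Shared sequence between genes was measured as the share of 50-base stretches in GENCODE M21 transcripts, since no source used here states how reads with several matches were counted.

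Deviations from the group means correlated at 0.31, 0.16 and 0.10 for libraries of the same number and at -0.25 to 0.11 for others. The pairing of numbers rests on these values alone, and the labels name no shared litter or day; the replicate number as a block was an alternative. The 16 alternatives varied the pseudocount, filter, scaling, eBayes settings, block and libraries, and included limma voom on recovered reads.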

Additional observations from a re-analysis of the deposited data

How the results depend on the processing

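No alternative brought a member to an adjusted p under 0.05 (limma, 16 alternatives), and 24 of the 40 kept their direction under each; the other 16 reversed under at least 1. Over all genes 3 passed, against 1 with a pseudocount of 0.1, 0 with no filter, 5 with scaling by total FPKM, 0 with the replicate block, 11 with limma voom on recovered reads and 0 to 58 when leaving out a liver (58 without control 3, 29 without knockout 2). Paired by replicate number, as a block, no call on a member changed. Without overlap, the members higher were 1 and those lower 7; with scaling by total FPKM they were 4 and 4 (13.1% and 3.82% of all genes), and leaving out a liver gave 1 to 4 (13.4% to 15.5% of all genes) and 7 to 14 (14.6% to 18.3%). The median of the members was -0.023 with scaling by total FPKM. A filter at 1 FPKM left 38 members, without Ifi44 and Gbp6.

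With quantile normalization the log2 change reversed to Isg15 0.015, Dhx58 -0.0016, Bst2 0.063 and Gbp7 -0.018. With scaling by total FPKM the log2 change reversed to Isg15 0.13, Herc6 0.054, Stat2 0.0059, Ifih1 0.093, Bst2 0.13, Ifi47 0.10, Igtp 0.0091 and Gbp3 0.086. The limma voom fit moved the median log2 change of all tested genes to 0.13, with 31 members below that median. With limma voom the log2 change reversed to Isg15 0.13, Herc6 0.082, Ifih1 0.11, Bst2 0.12, Ifi47 0.10, Igtp 0.0048 and Gbp3 0.10. Leaving out a liver, it crossed 0 with ranges of -0.12 to 0.12 for Dhx58, -0.011 to 0.038 for Gbp7, -0.20 to 0.19 for Isg15, -0.087 to 0.090 for Herc6, -0.25 to 0.044 for Trim25, -0.22 to 0.017 for Stat2, -0.10 to 0.016 for Ifih1, -0.10 to 0.033 for Bst2, -0.35 to 0.063 for Ifi27l2a, -0.27 to 0.16 for Ifi47, -0.10 to 0.019 for Gbp3, -0.087 to 0.078 for Ifi27, -0.036 to 0.41 for Oasl2, -0.24 to 0.0048 for Xaf1 and -0.0026 to 0.088 for Ddx58. The cause was not tested. With 3 livers a group and the knockout spread given above, small differences were not detectable, and low members such as Gbp6 rest on few reads.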
